A study of Homo sapiens with 2 samples.

Results

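The regions described here lie at pairs of protein-coding genes that start close together on opposite strands, an arrangement usually called a bidirectional or head-to-head promoter. They were chosen by 2 conditions. The region had to be in the deposited list of regions with more SMARCA4 ChIP-seq tags (aligned reads) in parental TOV21G cells than in EZH2 inhibitor-resistant (EIR) cells, on any chromosome but Y. Its nearest edge also had to lie within 1 kb of the 5′ ends of at least 2 protein-coding genes, with at least 1 on each strand. The rule was met by 289 of 10792 parental-higher regions (2.68%, 95% Wilson interval 2.39 to 3.00%), called member regions below. The position condition was met by 14 of 2104 EIR-higher regions (0.665%, 0.397 to 1.11%). Among regions within 1 kb of any coding start the shares were close. They were 289 of 3467 for the parental-higher list (8.34%, 7.46 to 9.30%) and 14 of 176 for the EIR-higher list (7.95%, 4.80 to 12.9%).

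SMARCA4, also called BRG1, is a catalytic ATPase of the SWI/SNF complex, which uses ATP to slide or evict nucleosomes and so opens promoters and enhancers. TOV21G cells come from an ovarian clear cell carcinoma with mutated *ARID1A*, and ARID1A is another SWI/SNF subunit. One library came from the parental line, which is not labelled with any drug. The other came from clone 3 of the resistant line, selected in GSK126, an inhibitor of the histone methyltransferase EZH2, raised from 5 to 10, 15 and 20 μM. In both lines a FLAG tag and a puromycin resistance gene had been placed at the 3′ end of endogenous *SMARCA4* by CRISPR, and each tagged line was grown from a single colony. Chromatin was crosslinked with EGS and formaldehyde, cut with MNase and sonication, and precipitated with an anti-FLAG antibody. There was 1 library per condition, so no value below has a replicate, no test was made, and the resistant state cannot be told apart from the particular clone or library. The intervals of folds cover counting error only.

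The parental library held 25600000 tags and the EIR library 35000000, both rounded. The tags of the EIR library were deposited after scaling to the parental total, and 1 EIR tag counted as 0.733. The fold is the number of parental tags divided by the scaled EIR tags in the same region. Since every region was selected on this contrast, a fold above 1 is a condition of entry and not a finding.

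Divergent promoters of coding genes are usually CpG islands that lack a TATA box. The stretch between both starts holds binding sites that serve both genes, and many such pairs join housekeeping genes, with DNA repair genes among the known examples. RNA polymerase II initiates in both directions, and nucleosomes flank the open stretch on either side.

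The gene pairs came in 2 arrangements. In 157 of the 289 members (54.3%, Wilson interval 48.6 to 60.0%) the starts were divergent, so that the minus-strand gene began upstream of the plus-strand gene and the genes did not overlap. In the other 132 (45.7%, 40.0 to 51.4%) the 5′ ends overlapped, so that each gene model began inside the other. The label bidirectional promoter depended on the gene model. The rule used the outermost 5′ end of each gene feature, and when the transcript marked as canonical by Ensembl was taken for each gene, both starts of the pair lay within 1 kb of the region in 154 members (53.3%, 47.5 to 59.0%). In 134 members (46.4%, 40.7 to 52.1%) 1 of the canonical starts did, and in 1 member neither did. Of the 132 overlapping pairs, 122 (92.4%, 86.6 to 95.8%) were divergent by their canonical starts. The regions with most tags and the largest fold, *HES4*/*ISG15* and *NAA38*/*CHD3*, were among those without both canonical starts nearby.

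For divergent pairs whose starts are at most 300 bp apart, the sequence between the outermost starts of both gene models belongs to the promoter they share, although the promoter can reach beyond it. It is shown for 4 such pairs among the members with the most tags or the largest fold, from GRCh37, plus strand, 5′ to 3′, running from the base after the minus-strand gene's start to the base before the plus-strand gene's start. Capitals mark exact matches, on either strand, to the letters of 7 promoter motifs: the CCAAT box bound by NF-Y, the GC box GGGCGG bound by SP1, the ETS core CCGGAAG, the NRF1 core GCATGCGC, the YY1 core AAGATGGC, the cAMP response element TGACGTCA and the TATA box TATAAA. The stretches lie at chr2:110371721-110371940, chr1:1167412-1167616, chr13:73301768-73301886 and chr5:153418497-153418518, in the order shown.
*SEPTIN10*/*SOWAHC*: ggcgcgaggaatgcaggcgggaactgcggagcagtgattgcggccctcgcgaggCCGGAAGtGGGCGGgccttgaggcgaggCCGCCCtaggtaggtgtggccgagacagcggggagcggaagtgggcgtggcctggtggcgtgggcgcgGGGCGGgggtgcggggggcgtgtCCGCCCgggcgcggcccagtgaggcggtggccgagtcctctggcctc
*SDF4*/*B3GALT6*: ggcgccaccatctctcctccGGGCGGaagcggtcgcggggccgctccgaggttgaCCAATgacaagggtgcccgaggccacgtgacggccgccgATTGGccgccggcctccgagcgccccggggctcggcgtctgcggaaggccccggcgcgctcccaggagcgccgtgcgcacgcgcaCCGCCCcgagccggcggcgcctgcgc
*MZT1*/*BORA*: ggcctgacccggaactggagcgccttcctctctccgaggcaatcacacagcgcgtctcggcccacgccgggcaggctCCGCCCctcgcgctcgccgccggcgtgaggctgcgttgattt
*FAM114A2*/*MFAP3*: aggcgtgccggtgtgtccgaga

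The *SEPTIN10*/*SOWAHC* stretch had 5 matches, 4 of them GC boxes and 1 the ETS core. That of *SDF4*/*B3GALT6* had 2 GC boxes and 2 CCAAT boxes, that of *MZT1*/*BORA* had 1 GC box, and the 22 bases between *FAM114A2* and *MFAP3* had none. Their GC content ran from 68.2 to 79.0%. The SMARCA4 regions stood differently to these stretches. The *SEPTIN10*/*SOWAHC* region covered both starts, and the *SDF4*/*B3GALT6* region covered the start of *B3GALT6*, which encodes a galactosyltransferase of proteoglycan linkers, and ended 31 bp from that of *SDF4*. The *FAM114A2*/*MFAP3* region lay 388 bp inside *FAM114A2*.

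Over the 289 members, parental tags ran from 17 to 286 with a median of 48.0 (quartiles 34.0 and 76.0). Scaled EIR tags ran from 2.90 to 140 with a median of 19.8 (quartiles 11.7 and 32.3). The fold ran from 1.66 to 11.1 with a median of 2.48 (quartiles 2.11 and 2.88), so the middle of the set was narrow and a few regions stood far above it. In summed tags the members held 16894 parental and 7030 scaled EIR tags, a fold of 2.40. The fold was at least 2 in 255 members (88.2%), beside 92.0% of the whole parental-higher list, and at least 4 in 15 members (5.19%), beside 11.9% of the list. As all entered through this contrast, the counts describe the list. The exact interval of the fold lay above 1 in 289 of 289 members and above 1.5 in 125. Lengths ran from 500 bp, the shortest region in the list, to 3174 bp with a median of 766 bp, and 76 members (26.3%) had the shortest length.

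**Figure D1:**
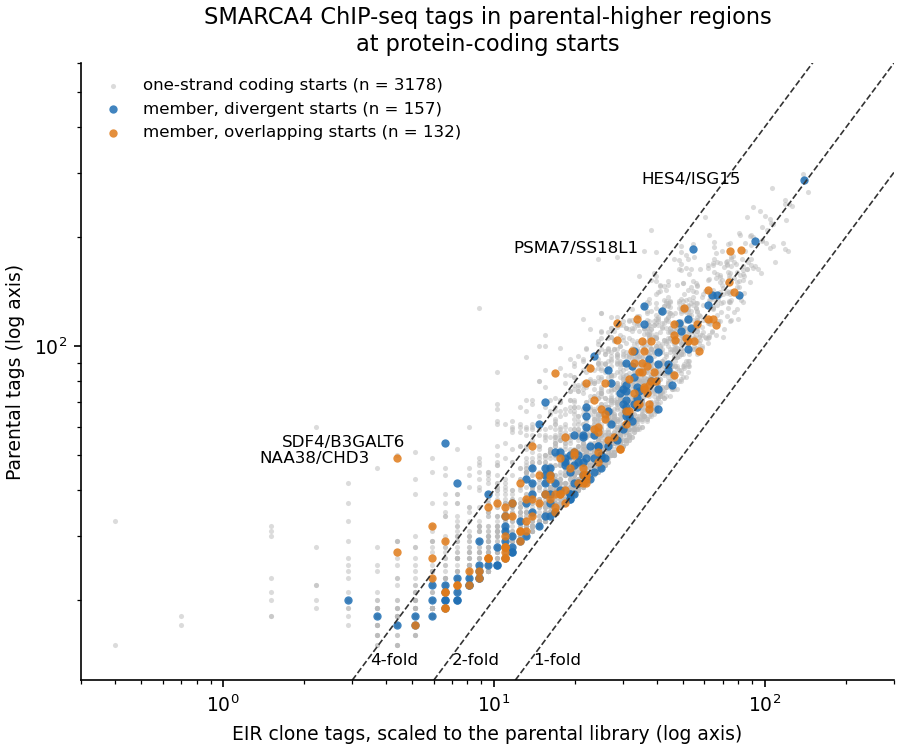
Parental tags (vertical, log axis) against scaled EIR tags (horizontal, log axis) for each parental-higher region at coding starts, with 1 point per region. Grey points are the 3178 regions at coding starts on 1 strand, blue points the 157 members at divergent starts and orange points the 132 members at overlapping starts, and dashed lines mark equal tags and folds of 2 and 4. Members lie within the cloud of grey points, most of them near the line of a fold of 2, with *NAA38*/*CHD3* and *SDF4*/*B3GALT6* far to its left.

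The member with the most tags was *HES4*/*ISG15* at chr1:934525-937699, with 286 parental and 140 scaled EIR tags, a fold of 2.04 (95% interval 1.69 to 2.47). *HES4* encodes a transcriptional repressor of the HES family and *ISG15* an interferon-induced ubiquitin-like protein. The region covered both gene-feature starts, 966 bp apart, but the canonical start of *ISG15* lay 11178 bp beyond its edge. Next came *SEPTIN10*/*SOWAHC* at chr2:110370005-110372535, with 195 parental and 92.4 scaled EIR tags (fold 2.11, 1.68 to 2.66), where *SEPTIN10* encodes a filament-forming GTPase. The region of *PSMA7*, a subunit of the proteasome core, and *SS18L1*, a subunit of the SWI/SNF complex itself, had 185 parental and 54.2 scaled EIR tags at chr20:60717844-60720044. Its fold of 3.41 (2.59 to 4.53) was the highest of the 8 members with the most tags, and its interval did not reach the median of all members.

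The rest of these 8 had folds from 1.83 to 2.43. The *DBNDD1*/*GAS8* region had 184 parental and 82.1 scaled EIR tags, and *GAS8* encodes a part of the dynein regulatory complex of cilia. *SLC20A2*, a phosphate transporter gene, paired with *SMIM19*, had 182 and 74.8, and *SPIRE1*, which encodes an actin nucleator, paired with the proteasome chaperone gene *PSMG2*, had 150 and 74.0. *NT5DC2*/*UQCC5* had 143 and 61.6, and *UQCC5* encodes an assembly factor of respiratory complex III. The *GLUD1*/*SHLD2* region, between the genes of glutamate dehydrogenase and of a shieldin subunit that protects broken DNA ends, had 141 and 77.0, the smallest fold of the 8. All 5 had overlapping starts, and *GLUD1*/*SHLD2* was the only one of them with both canonical starts within 1 kb.

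The largest fold belonged to *NAA38*/*CHD3* at chr17:7788231-7789033, with 49 parental and 4.4 scaled EIR tags, or 6 EIR tags before scaling, a fold of 11.1 (4.77 to 31.8). *CHD3* encodes a remodelling ATPase of the NuRD complex and *NAA38* an auxiliary subunit of an N-terminal acetyltransferase. Neither canonical start lay within 1 kb, since that of *CHD3* was 3074 bp away and that of *NAA38* 27354 bp away. *SDF4*/*B3GALT6* at chr1:1167442-1168270 followed with 54 parental and 6.6 scaled EIR tags (fold 8.18, 4.01 to 18.9), and both its canonical starts were near. The intervals of both regions lay wholly above the median fold of the members. Both were picked for the largest folds, so this is no separate evidence.

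The next 6 folds ran from 6.90 to 4.86 and rested on few EIR tags. *FAM114A2*/*MFAP3* had 20 parental tags against 4 unscaled EIR tags (fold 6.90, 2.29 to 27.4), and *MIP*/*SPRYD4* had 27 against 6 (6.14, 2.48 to 18.2), where *MIP* encodes the water channel of the eye lens. *TRPM5*/*KCNQ1*, with a taste cell cation channel and a potassium channel, had 42 against 10 (5.75, 2.83 to 12.8). *ALYREF*/*ANAPC11*, an mRNA export adaptor and a subunit of the anaphase-promoting complex, had 32 against 8 (5.42, 2.46 to 13.7). *HAGH*/*FAHD1*, a glyoxalase and a mitochondrial decarboxylase, had 84 against 23 and therefore the narrowest interval of the 6 (4.97, 3.11 to 8.28). One of the regions of *MZT1*/*BORA* had 18 against 5 (4.86, 1.76 to 16.9).

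At the other end, *MMS19*/*UBTD1* had 67 parental and 40.3 scaled EIR tags (fold 1.66, 1.15 to 2.42), and *MMS19* encodes a factor that delivers iron-sulfur clusters to DNA repair enzymes. *RPL7*/*RDH10* had 97 and 57.2 (1.70, 1.25 to 2.32) and *ANKRD16*/*FBH1* had 138 and 80.6 (1.71, 1.32 to 2.22). These regions and those with the largest folds were picked as the ends of the range. Where their intervals lie against the median of the members is therefore not a finding. The members nearest to the Poisson limit of the list were *TSTD2*/*NCBP1* with 46 against 24.9 scaled EIR tags and *METTL8*/*DCAF17* with 52 against 29.3.

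**Figure D2:**
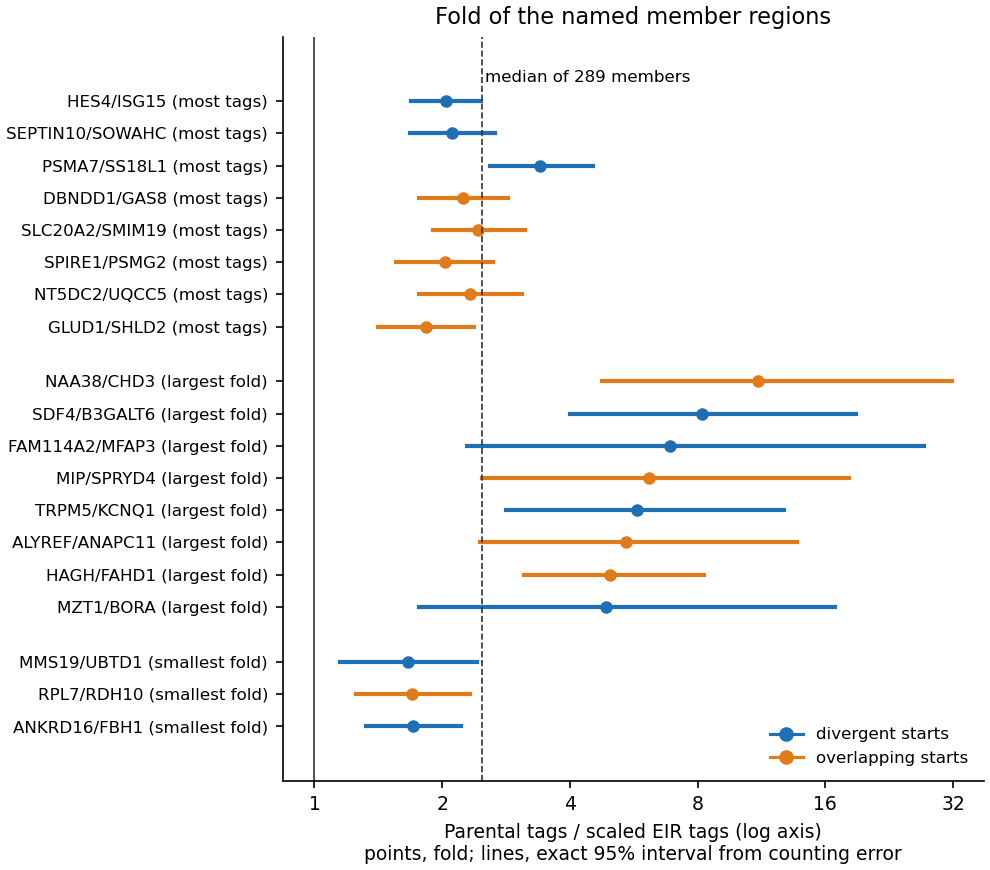
Fold of parental over scaled EIR tags (horizontal, log axis) for the 8 members with the most tags, the 8 with the largest fold and the 3 with the smallest fold. Points are folds and lines exact 95% intervals from the tag counts of 1 library per condition, blue for divergent and orange for overlapping starts, with a dashed line at the median of the 289 members. The intervals of the 3 smallest folds, of *GLUD1*/*SHLD2* and of *HES4*/*ISG15* end below 2.48. Those of *NAA38*/*CHD3*, *SDF4*/*B3GALT6*, *TRPM5*/*KCNQ1*, *HAGH*/*FAHD1* and *PSMA7*/*SS18L1* begin above it. Members with the largest and smallest folds were picked by fold, so the place of their intervals is no separate evidence.

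Among the longest members were *HES4*/*ISG15* (3174 bp), *SEPTIN10*/*SOWAHC* (2530 bp) and *DBNDD1*/*GAS8* (2266 bp), and these 3 covered both starts. Each member was tied to its closest opposite-strand pair, and the 289 members fell on 287 different pairs of 574 genes. More than 2 coding genes started within 1 kb of 21 members (7.27%), and the start of a noncoding gene within 1 kb of 31 (10.7%).

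There were 2 pairs with 2 members each. At *MZT1*/*BORA*, genes for a γ-tubulin complex protein and an activator of mitotic kinases, the region over both starts at chr13:73301269-73301941 had 50 parental and 20.5 scaled EIR tags (fold 2.44, 1.50 to 4.02). The second one, 470 bp inside *BORA* at chr13:73302357-73302857, had 18 and 3.7, and the intervals of these folds overlapped. At *GUCD1*/*SNRPD3*, where *SNRPD3* encodes a core protein of spliceosomal snRNPs, the region on the *GUCD1* side had 49 and 24.9 (fold 1.97, 1.24 to 3.14), and the one on the *SNRPD3* side 32 and 11.0 (2.91, 1.53 to 5.78). These intervals overlapped as well.

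Few member regions were centred between divergent starts. The stretch between the starts is short and the rule admits regions up to 1 kb from them, so a low share is built in. No expected share was computed. Divergent starts were 140 bp apart at the median (quartiles 74.0 and 283 bp), and the centre of the region lay between them in 8 of 157 members (5.10%, 2.60 to 9.73%). It lay on the transcribed side of the plus-strand gene's start in 71 (45.2%, 37.6 to 53.0%) and of the minus-strand gene's start in 78 (49.7%, 42.0 to 57.4%), which gave no lean towards either strand within these intervals. The distance from the centre to the midpoint of the starts had a median of 422 bp (quartiles 250 and 633 bp). At the 3178 regions with coding starts on 1 strand, the centre lay downstream of the nearest start in 2588 (81.4%, 80.0 to 82.7%), at a median of 285 bp. With starts so close together a centre on either side of a divergent pair is downstream of 1 of its genes, so that these shares are not on the same footing.

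A region covered both starts in 54 of the 157 divergent members (34.4%, 27.4 to 42.1%), 1 start in 37 and neither in 66 (42.0%, 34.6 to 49.9%). Among the 132 overlapping members these numbers were 33 (25.0%, 18.4 to 33.0%), 58 and 41, and the starts lay farther apart, at a median of 551 bp. Over all members, regions that covered both starts had a median of 72.0 parental and 29.3 scaled EIR tags and were 946 bp long at the median, those that covered 1 start had 46.0 and 20.5 tags and 772 bp, and those that covered neither had 39.0 and 15.4 tags and 628 bp. A longer region holds more tags and reaches more starts. Per kb the parental tags were 72.0, 70.6 and 62.1, and the median folds were 2.43, 2.44 and 2.61.

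**Figure D3:**
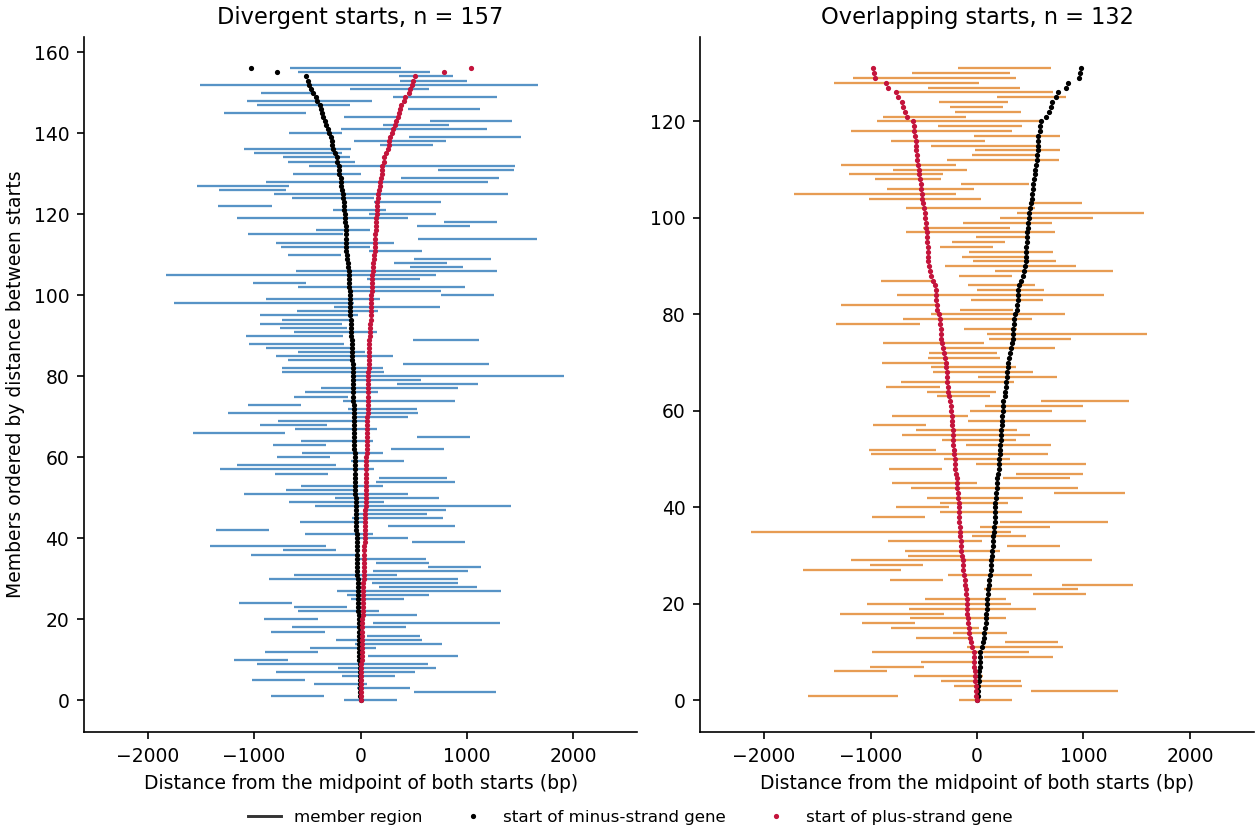
Each member region drawn to scale around the midpoint of its gene pair (horizontal, bp), with members ordered from the closest starts at the bottom to the farthest at the top. Coloured lines are regions, black dots the starts of minus-strand genes and red dots those of plus-strand genes, for 157 divergent pairs on the left and 132 overlapping pairs on the right. Most blue lines lie to one side of the midpoint, 8 of them are centred between the starts, and the 2 sides are about equally filled.

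Divergent and overlapping pairs gave nearly the same tag values. The 157 divergent members had medians of 48.0 parental tags, 19.8 scaled EIR tags, a fold of 2.49 (order-statistic interval of the median 2.36 to 2.62) and 760 bp. The 132 overlapping members had 49.5, 21.6, 2.48 (2.36 to 2.55) and 788 bp. The 154 members with both canonical starts nearby had 46.5, 19.1, 2.48 (2.37 to 2.57) and 689 bp, and the remaining 135 had 51.0, 21.3, 2.46 (2.36 to 2.61) and 788 bp. The intervals of these median folds overlap, while the lengths differed most between the members with and without both canonical starts.

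Regions at coding starts on 1 strand are the most similar set. The 3178 of them had medians of 52.0 parental tags, 21.3 scaled EIR tags, a fold of 2.52 (2.48 to 2.55) and 768 bp, against a fold of 2.48 (2.40 to 2.55) and 766 bp for members, so the medians differed by less than their intervals. A fold of at least 4 was reached by 8.37% of them and 5.19% of members, where 11.9% of the whole list reached it. The 7325 regions away from coding starts were weaker and shorter, with medians of 23.0 parental tags, 7.30 scaled EIR tags and 500 bp, and had a median fold of 3.01 (2.96 to 3.03). Low counts need a larger fold to pass the list's threshold, and the medians were therefore also read within classes of parental tags.

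Within the 5 classes of parental tags, set by the quintiles of the whole list, the fold of members fell from 3.33 at 15 to 19 tags to 2.28 at 59 tags and more. For one-strand promoters it fell from 3.33 to 2.39, and for regions away from coding starts from 3.53 to 2.23. In each class the medians of members and one-strand promoters lay within the quartiles of the other set. The lowest class held 9 members and the highest 111. Of the members 38.4%, and of the one-strand promoters 43.1%, were in the highest class.

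**Figure D4:**
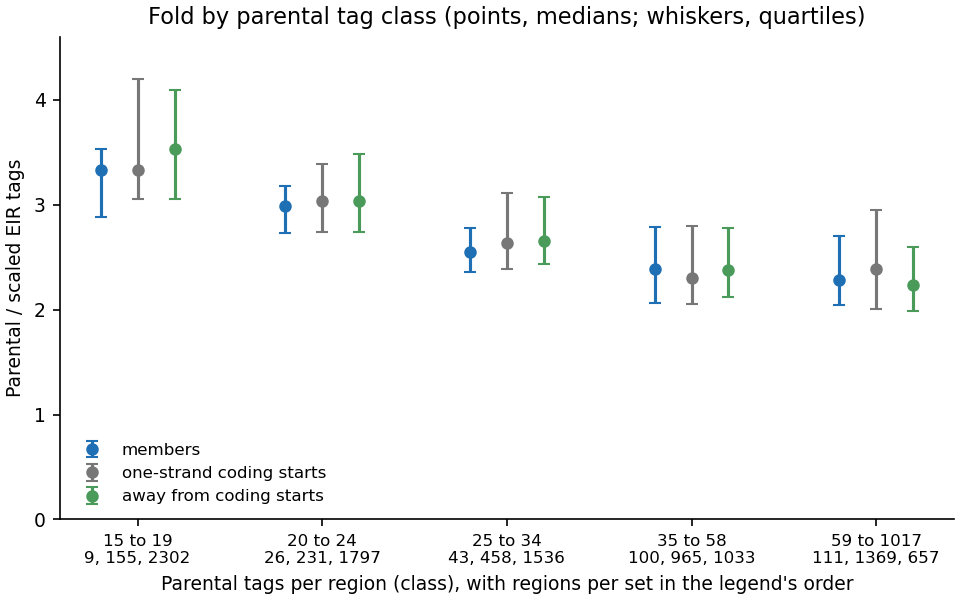
Fold of parental over scaled EIR tags (vertical) in 5 classes of parental tags per region (horizontal), for members in blue, one-strand coding promoters in grey and regions away from coding starts in green. Points are medians and whiskers quartiles over regions, and the number of regions in each set stands under the class. The medians fall from between 3.33 and 3.53 in the lowest class to between 2.23 and 2.39 in the highest, and the whiskers of the 3 sets overlap in every class.

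The annotation gave the number of places where a member could have been found. Outside chromosome Y it held 1396 pairs of opposite-strand coding genes whose starts were at most 1 kb apart, with 884 divergent, and 2680 of 20111 coding genes (13.3%) belonged to such a pair. A parental-higher region lay within 1 kb of both starts in 276 pairs, or 19.8% (Wilson interval 17.8 to 21.9%). Of all 20111 coding genes, 18.7% (18.2 to 19.3%) had a parental-higher region within 1 kb, and of the 17431 unpaired ones 18.4% (17.9 to 19.0%). Of the 2680 paired genes 554 had one (20.7%, 19.2 to 22.2%). The interval lay just above that of the unpaired genes, and the difference was not tested. The same region can count for both genes of a pair, so the genes are not independent and this interval is too narrow. With canonical starts, 199 of 1034 pairs had such a region, or 19.2% (17.0 to 21.8%). An EIR-higher region lay at 14 of the 1396 pairs, or 1.00% (0.598 to 1.68%), beside 0.970% of all coding genes.

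By distance between the starts, the share of pairs with a parental-higher region ran from 16.3% (12.8 to 20.5%) of the 344 divergent pairs 1 to 100 bp apart to 26.3% of the 76 divergent pairs 501 to 1000 bp apart (17.7 to 37.2%) and of the 186 overlapping pairs at that distance (20.5 to 33.1%). The share was 18.2% (15.8 to 20.9%) over all divergent pairs and 22.5% (19.1 to 26.3%) over the 512 overlapping ones. These intervals overlapped. The divergent members 1 to 100 bp apart had a median fold of 2.72 (quartiles 2.25 and 2.92, n = 53), and those 501 to 1000 bp apart one of 2.17 (2.04 and 2.41, n = 18), with medians of 42.0 and 58.5 parental tags. The overlapping members 0 to 200 bp apart had a median fold of 2.36 with 39.0 tags (n = 22), and the members over 1000 bp apart in either arrangement one of 2.68 with 57.5 tags (n = 32), so the fold did not follow the tags across these classes.

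**Figure D5:**
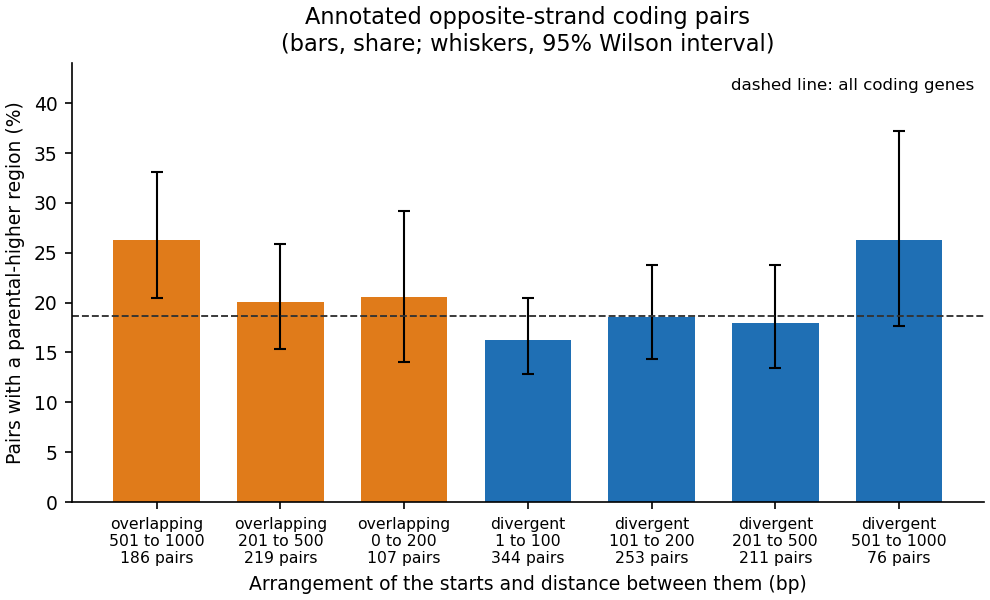
Share of annotated opposite-strand coding pairs with a parental-higher region within 1 kb of both starts (vertical, %) by arrangement and distance between the starts (horizontal, bp). Bars are shares, orange for overlapping and blue for divergent pairs, whiskers 95% Wilson intervals, and the dashed line is the 18.7% of all coding genes with a parental-higher region within 1 kb. All but the interval of the overlapping pairs 501 to 1000 bp apart, which begins at 20.5%, include the dashed line.

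Named gene groups were read by how many of their paired genes had a member, against 531 of 2680 paired coding genes (19.8%). The regions of a group share no independent evidence of a direction, since every member is parental-higher by choice. Of 43 paired DNA repair genes 7 had a member (16.3%, 8.12 to 30.0%). Among them were *XRCC3* of homologous recombination, which had 138 parental and 63.8 scaled EIR tags (fold 2.16), and the helicase gene *WRN* with 46 and 13.9 (fold 3.31). Of 30 paired replication and cell cycle genes 8 had a member (26.7%, 14.2 to 44.4%). *POLE*, the catalytic subunit gene of a replicative polymerase, had 119 and 52.0 (fold 2.29), and *CDC25B*, a phosphatase gene of mitotic entry, had 68 and 22.0 (fold 3.09). The replication and cell cycle list did not hold *ANAPC11*, whose member is described above, or *DBF4* and *TIPIN*, which also had members. The DNA repair list did not hold *SHLD2*, *MMS19* and *FBH1*, whose members are described above, or *RECQL4*, which also had one. These gaps were found after the values were seen, and the shares hold for the listed genes only.

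Groups of protein synthesis and breakdown spread around the background. Members lay at 3 of 17 paired cytosolic ribosomal protein genes (17.6%, 6.19 to 41.0%), among them *RPL35*, with 37 parental and 13.2 scaled EIR tags (fold 2.80). They lay at 4 of 24 paired translation factor and tRNA synthetase genes (16.7%, 6.68 to 35.9%), where *EIF4E3*, a cap-binding protein gene, had the most tags and the largest fold, 119 against 33.7 (3.53). Proteasome and ubiquitin genes had 6 of 23 (26.1%, 12.5 to 46.5%), with *PSMA7* the highest in tags and fold. RNA polymerase subunit genes had 4 of 13 (30.8%, 12.7 to 57.6%), with *POLR2H* at 89 and 40.3 (2.21) and *POLR3C* at 31 and 12.5 (2.48). RNA processing genes had 3 of 32 (9.38%, 3.24 to 24.2%), and their highest in tags was the helicase gene *DHX32* with 75 and 34.5 (2.17).

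In 3 of the 13 groups looked at the interval of the share lay below 19.8%. The mitochondrial respiratory, ribosomal and import genes listed had a member at 6 of 74 paired genes (8.11%, 3.77 to 16.6%). Their list did not hold *PMPCA* and *TTC19*, which also had members, so the share holds for the listed genes only. The region of *MRPL11*, a mitochondrial ribosomal protein gene, had 71 parental and 23.5 scaled EIR tags (3.02), and that of *NDUFAF5*, a complex I assembly gene, 37 and 11.7 (3.16). Zinc finger transcription factor genes had 4 of 56 (7.14%, 2.81 to 17.0%), with 130 and 61.6 at *ZNF664* (2.11) and 58 and 24.2 at *ZNF276* (2.40). Genes of the H1, H2A, H2B, H3 and H4 histone families, many of which pair head to head in clusters, had 0 of 24 (0 to 13.8%). These 3 were picked for their low shares, and the differences were not tested. Genes of a group can share a pair or a cluster and are not independent, and whether SMARCA4 occupies those promoters alike in both lines was not analysed here.

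Few genes of the chromatin complexes of the study were paired at all, too few to read a share from. Of 2 paired SWI/SNF genes 1, *SS18L1*, had a member (interval of the share 9.45 to 90.5%). Of the Polycomb genes listed 1 was paired and had none (0 to 79.3%), and of the BCL2 family of apoptosis regulators 2 were paired and 0 had a member (0 to 65.8%). The Polycomb list did not hold *YAF2*, a gene of a subunit of Polycomb repressive complex 1, or *BAP1*, the gene of a Polycomb deubiquitinase. These are named here after their values were seen. The *YAF2*/*PPHLN1* member had 94 parental and 23.5 scaled EIR tags (fold 4.00), and the *BAP1*/*PHF7* member 53 and 26.4 (fold 2.01). The median fold of the member regions of a group, those with starts over 1 kb apart included, ran from 2.21 to 2.74 in all groups with more than 1 of them, beside 2.48 for all members.

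Of 16 head-to-head pairs known from the field, 12 had gene-feature starts within 1 kb of each other, and 1 of these had a member, beside 19.8% of all annotated pairs at that distance. Of the others 1 had a member. The gene-feature starts of *PRKDC*, the gene of the DNA-PK catalytic subunit, and *MCM4*, a subunit of the replicative helicase, lie 7 bp apart. By these starts the region began inside *MCM4*, with 50 parental and 24.9 scaled EIR tags (fold 2.01, 1.27 to 3.20). Their canonical starts lie 805 bp apart, and the region covered that of *MCM4* and lay 549 bp from that of *PRKDC*. The collagen IV genes *COL4A1* and *COL4A2* overlap by 1345 bp in their gene models. The region lay between these gene-feature starts at chr13:110958621-110959249 with 48 and 24.2 tags (fold 1.98, 1.25 to 3.19). By canonical starts the pair is divergent, with starts 127 bp apart. The region then lay inside *COL4A1*, 255 bp from its start and 382 bp from that of *COL4A2*. Another 3 pairs had a parental-higher region near 1 of their genes only. These lay at *ATM*, a DNA damage kinase gene, with 17 and 5.1 tags (fold 3.33), at *PPAT* of purine synthesis with 26 and 8.1 (3.21), and at *TRMT2A*, a tRNA methyltransferase gene, with 48 and 23.5 (2.04). At the other 11 pairs, among them *HSPD1*/*HSPE1*, *HARS1*/*HARS2*, *SURF1*/*SURF2*, *TK1*/*AFMID*, *TBP*/*PSMB1*, *MRPS12*/*SARS2*, *APEX1*/*OSGEP*, *PSMB9*/*TAP1* and *PREPL*/*CAMKMT*, neither list had a region within 1 kb of a start.

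At 3 pairs a member stood beside an EIR-higher region. At *CHKB*/*MAPK8IP2*, with a choline kinase gene, the member at chr22:51038674-51039620 had 79 parental and 22.0 scaled EIR tags (fold 3.59, 2.33 to 5.67). The EIR-higher region at chr22:51038470-51038970 overlapped it and had 68.2 scaled EIR and 34.0 parental tags, a fold of 2.01 in the other direction. At *BAG1*/*CHMP5*, genes of a chaperone cofactor and a subunit of the ESCRT membrane-cutting machinery, the member had 44 and 16.1 tags (2.73, 1.60 to 4.78), and the overlapping EIR-higher region had 21.3 scaled EIR and 8.0 parental tags. At *LRRC73*/*POLR1C*, the latter a gene of RNA polymerases I and III, the member had 63 and 25.7 tags (2.45, 1.60 to 3.83), and the EIR-higher region nearby had 16.9 and 5.0. Each region entered its list by the direction of its tags, so the opposite directions at these pairs are a condition of entry. The pairs *CHKB*/*MAPK8IP2* and *LRRC73*/*POLR1C* also rest on gene-feature starts. The canonical start of *CHKB* lay 17396 bp and that of *POLR1C* 6334 bp from the member. At *BAG1*/*CHMP5* the member covered the canonical start of *BAG1* and lay 209 bp from that of *CHMP5*. The other 11 EIR-higher regions at opposite-strand starts had from 15.4 to 42.5 scaled EIR tags and lay at pairs without a member, among them *HNRNPK*/*RMI1* and *LIN7A*/*ACSS3*.

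In base composition the members were CpG island promoters like those of 1 strand. In the 500 bp around the region's centre, GC content had a median of 73.8% in members (quartiles 64.8 and 77.4%), 74.8% in one-strand promoters (68.0 and 78.2%) and 45.0% away from coding starts (39.8 and 52.2%). The ratio of observed to expected CpG had medians of 0.871, 0.890 and 0.231. The GC box was present in 86.5% of these windows in members (82.1 to 90.0%), in 85.3% in one-strand promoters (84.0 to 86.5%) and in 21.3% away from coding starts. The TATA box was present in 4.50%, 5.95% and 28.3%.

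Motifs were also counted from 250 bp before to 50 bp after the start of each gene, on both strands and allowing overlap. At the 574 starts of member pairs the GC box was present in 76.0% (72.3 to 79.3%), and at the 2149 paired starts without a member in 65.0% (62.9 to 66.9%). At one-strand starts with a region its share was 77.1% (75.6 to 78.5%), close to that of member starts. At all 20106 coding starts it was 52.1% (51.5 to 52.8%). The ETS core went the other way among paired starts, with 14.3% (11.7 to 17.4%) where there was a member and 25.2% (23.4 to 27.1%) where there was none, beside 9.77% at one-strand starts with a region and 11.8% at all coding starts. The CCAAT box was found at 31.7% (28.0 to 35.6%), 38.3% (36.3 to 40.4%), 31.8% and 35.8% of these starts in the same order. The intervals for starts with and without a member did not overlap for these 3 motifs. The sets differ in another way as well. The member starts include those of 32 members with starts over 1 kb apart, while paired starts without a member all have their partner within 1 kb. The starts of a pair share part of their windows, so that they are not independent, and a match is a description of letters and not of a bound site.

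The remaining motifs were rare, and their intervals overlapped between paired starts with and without a member for all 4 of them. The NRF1 core was found at 5.23% of member starts and 7.21% of paired starts without one, the YY1 core at 4.88% and 6.19%, and the cAMP response element at 2.61% and 3.40%. The TATA box was found at 2.96% (1.86 to 4.69%) and 5.40% (4.52 to 6.44%), against 10.9% of all coding starts.

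Members came from 23 chromosomes, with the highest number, 25, on chromosome 1. Chromosome 10 held 14 members (4.84%, 2.91 to 7.97%) against 11.1% (10.5 to 11.7%) of the whole parental-higher list. Most of that list, 7325 of 10792 regions, lay away from coding starts. The share of chromosome 10 among regions at coding starts is not given here, so no depletion of members can be read from these values. Its members had medians of 65.5 parental tags and a fold of 2.05 (1.77 to 2.74), those elsewhere 48.0 and 2.49 (2.41 to 2.55), and 2 of the 3 smallest folds, *MMS19*/*UBTD1* and *ANKRD16*/*FBH1*, lay on it. The parental-higher list on chromosome 10 had a median fold of 2.88 (2.82 to 2.88), as the whole list did (2.88, 2.84 to 2.88). The number of copies of each chromosome in either line was not analysed here.

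At the edge of the window, the members whose farther start was most distant were *ANAPC13*/*CEP63* at 993 bp with 21 parental and 6.6 scaled EIR tags, *AGPAT1*/*RNF5* at 990 bp with 17 and 4.4, and *RHCE*/*MACO1* at 989 bp with 69 and 33.0. Just outside it stood *FAM76B*/*CEP57* at 1014 bp with 40 and 17.6, *CAPS2*/*GLIPR1L2* at 1015 bp with 18 and 5.1, and *GSR*/*UBXN8* at 1036 bp with 85 and 38.9. Tags and folds on both sides of the limit were of the same order.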

How the data were processed

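The data were 2 ChIP-seq libraries of FLAG-tagged SMARCA4, 1 from the parental line and 1 from EIR clone 3, grouped by the sample labels. The authors aligned single-end reads with Bowtie 0.12.9 (version from the submitters' processing notes) to hg19 and ran HOMER peak calling with its histone setting, each library serving as control for the other. The deposited count of parental tags per region is raw. The deposited signal of the EIR library was scaled by the authors to the parental total. The p-value in the deposited list is HOMER's Poisson value and was used only to describe the edge of the list. The deposited fold, score, clonal fold change and the column headed region size were not used.

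Folds were recomputed as parental over scaled EIR tags. Whole EIR tags came from the step of the scaled values, 0.733, of which 98.4% of distinct values from 5 to 50 were multiples within 0.05. Regions were joined to the 5′ ends of 20176 protein-coding gene features of GENCODE 44 mapped to GRCh37, which has the coordinates of hg19, and each member was tied to its closest opposite-strand pair. All region ends fell inside the GRCh37 chromosomes. Fold intervals are exact Clopper-Pearson, shares have Wilson intervals and medians order-statistic intervals, all at 95%. With 1 library per condition nothing was tested. Regions and genes are not independent replicates. Sequence was read from GRCh37 with pysam 0.24.0. The scripts ran on Python 3.11.15 with pandas 2.3.3, numpy 2.4.6, matplotlib 3.10.9, scipy 1.17.1 and samtools 1.23.1, and the functions were tested on simulated data.

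The members, gene lists and alternatives were chosen with earlier results of these data known. Named were the 8 members with the most tags, the 8 largest, the 4 smallest folds, the 4 longest, all known pairs, in each gene list the member with the most tags and that with the largest fold, and the regions at the window's edge. A few items that this rule takes in are not reported here. The pairs with 2 members, those beside an EIR-higher region and the members nearest to the limit of *P* were named after their values were seen. Canonical starts were added after the data were seen, and *RPS6K* kinase genes, caught by the *RPS* prefix, were taken out of the ribosomal list. The alternatives were other starts, windows and distances, limits on fold or on the distance between starts, readthrough genes left out, shared pairs counted once, a pseudocount and another scaling.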

Additional observations from a re-analysis of the deposited data

How the results depend on the processing

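Of 75 alternative values, 65 stayed within the interval of the reported value or within 1.5 times a reported count, and 10 did not. The number of members was 15 with a minimum fold of 4. With the EIR library scaled 1.5 times higher and the Poisson *P* recomputed it was 87, the median of scaled EIR tags was 29.7 and the median fold 1.65, so that both the number of members and the size of the fold depend on the scaling to total tags. It was 407 with the start of any transcript, 215 with a window of 500 bp and 195 with canonical starts. With canonical starts, an alternative added after the data were seen, the median length was 666 bp, which is 104 bp below that of one-strand promoters (a difference of -104 bp). The share of annotated pairs with a parental-higher region was 15.3% within 500 bp of both starts and 17.8% with a minimum fold of 2, where fewer regions can be counted by construction. Within tag classes, the median fold of members was 0.0871 above that of one-strand promoters in the fourth class, though -0.0370 in all, and members were longer by 128 bp in the third. The cause of these shifts in the classes was not tested.

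The lists hold only regions that differed between the libraries, so promoters bound alike were not analysed here, and an alternative can remove regions from the list but cannot add any to it. Scaling to total tags sets the average ratio of the libraries to 1, and a change of SMARCA4 occupancy over the whole genome cannot be seen. Folds resting on under 10 EIR tags have intervals spanning several-fold. The difference between lines cannot be told apart from that between clones, tagging colonies or libraries.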
